A study of Mus musculus with 12 samples.

Results

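Described here are 9 genes that carry the signal of the B cell antigen receptor inward: the kinases Lyn, Blk, Syk and Btk, the adaptor Blnk, the enzymes Plcg2 and Prkcb, and Bcl10 and Malt1 of the CBM complex. They were found by name among the probes of the arrays, with Prkcb also under its older symbol Prkcb1, and the brightest probe stands for each gene. All 9 were measured, out of 17132 genes whose probes passed the filter for signal above background. They have 13 probes in all, every one of them well above background on all 12 arrays and none saturated.

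The receptor itself has no enzyme activity. When it binds antigen, Src family kinases such as Lyn and Blk phosphorylate its signalling chains, Syk docks there, and Blnk gathers Btk and Plcg2, which cleaves a membrane lipid into a calcium-releasing messenger and diacylglycerol. Diacylglycerol recruits protein kinase C beta, the product of Prkcb, whose activity leads to the assembly of the CBM complex, with Bcl10 and Malt1 in it, and so to NF-kappaB. Lipopolysaccharide (LPS) enters the cell's signalling elsewhere, through a Toll-like receptor, and drives resting B cells to grow and to become antibody-secreting cells.

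The samples were splenic B cells of C57BL/6 mice carrying RERT-Cre, a Cre recombinase that tamoxifen switches on, and either 2 floxed Ebf1 alleles (Ebf1 fl/fl) or 1 (Ebf1 +/fl, the control). Ebf1 encodes a transcription factor of the B lineage. Every mouse of both genotypes, controls included, was given tamoxifen citrate, 3 mg on each of 4 days in a row, and was killed on day 10. The sorted cells were either left resting or stimulated with LPS, which gives 4 groups of 3 arrays: resting +/fl, resting fl/fl, LPS +/fl and LPS fl/fl. A Cre of this kind is not limited to B cells. The labels name 2 sorting gates, B220+ AA4.1- and the same with low CD21, without tying either to a sample, and give no dose or time for LPS, so time in culture and LPS cannot be told apart. Nothing says that the 3 arrays of a group came from separate mice, so a p-value here sets a difference against the spread among samples that may be technical replicates. The sample names of resting +/fl 3 and LPS +/fl 1 share a number.

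All 10 B cell markers were well above background on all 12 arrays. The brighter Ebf1 probe was not lower in resting fl/fl cells, at 1.68 to 1.81 against 0.75 to 1.40 in +/fl cells, while the dimmer probe read −5.01 to −4.21 against −3.16 to −2.18 (log2 levels). The labels do not say which part of the gene is floxed, so the brighter probe does not check the deletion, and groups are named by their labels. The LPS fl/fl 2 array had 83.2% of its spots above background, and no other array more than 61.4%. Levels below are log2 signals relative to the array's 75th percentile, where 0 is the level of that percentile, and they compare samples, not genes. A difference was called at an adjusted p under 0.05 from limma, with Benjamini-Hochberg adjustment over all 17132 genes.

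The probes are 60 bases long, and where on the transcript they lie matters for the results. Lyn, Prkcb, Bcl10 and Malt1 each have a further, dimmer probe that lies upstream of the bright probe along the gene (mm7 build): by 1068 bases for Lyn, 45901 for Prkcb, 8825 for Bcl10 and 24412 for Malt1. The 3 probes shown are Blk's only probe and the upstream probes of Lyn and Prkcb, because these 3 read low on the resting fl/fl 1 array. They lie at chr14:58242375-58243512 on the minus strand (Blk), chr4:3716905-3716964 on the plus strand (Lyn) and chr7:118506756-118508691 on the plus strand (Prkcb). The Blk and Prkcb probes span 1138 and 1936 bases of the genome, more than their own length, so each crosses an exon junction. They are written 5′ to 3′ in lower case, with no part marked.
Blk: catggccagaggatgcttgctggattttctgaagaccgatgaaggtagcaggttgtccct
Lyn, upstream probe: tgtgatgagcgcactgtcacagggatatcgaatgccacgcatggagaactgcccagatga
Prkcb, upstream probe: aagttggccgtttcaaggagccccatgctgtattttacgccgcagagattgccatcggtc

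RefSeq promoters (build GRCm38.p6, 250 bases before to 50 after the start) were matched for 6 members: Syk, with 2 starts, Btk, Blnk, Plcg2, Prkcb and Bcl10. They were searched on both strands for 4 motifs of B lineage factors. These were the Ebf1 core CCCNNGGG, held by 13.7% of 32851 mouse promoters, the PU.1 and ETS core GAGGAA, held by 28.3%, the E box CAGCTG, held by 16.3%, and the octamer ATGCAAAT of the Oct factors, held by 1.74%. Positions count from the start, whose first base is 1. The octamer was found in Prkcb, 70 bases before the start, and in Blnk, 130 bases before it on the opposite strand. Prkcb also held 4 E boxes, at −102, −20, 6 and 24. The Ebf1 core was found in Bcl10, where it overlaps itself at 21 and 22, the PU.1 core in Btk at 10 and at 1 start of Syk at −9, and an E box at the other start of Syk at 30. Plcg2 held none of the 4. The 250 bases before the start are shown for the pair with an octamer, which are among the 3 members with the smallest LPS differences, and for Plcg2, which had a large one. Capitals mark the motifs. A match describes the letters and is not evidence of binding.
Prkcb, chr7:122288875-122289124, plus strand: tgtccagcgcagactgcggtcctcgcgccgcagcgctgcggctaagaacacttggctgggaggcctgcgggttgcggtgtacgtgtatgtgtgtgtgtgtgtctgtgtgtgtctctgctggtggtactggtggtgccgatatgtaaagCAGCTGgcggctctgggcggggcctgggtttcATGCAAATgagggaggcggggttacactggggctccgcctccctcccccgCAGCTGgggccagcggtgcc
Blnk, chr19:40994222-40994471, minus strand: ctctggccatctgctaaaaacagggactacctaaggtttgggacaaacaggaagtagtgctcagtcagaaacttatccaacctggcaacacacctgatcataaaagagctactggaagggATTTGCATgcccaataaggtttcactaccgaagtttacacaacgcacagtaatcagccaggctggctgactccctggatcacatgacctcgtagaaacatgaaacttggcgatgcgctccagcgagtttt
Plcg2, chr8:117498025-117498274, plus strand: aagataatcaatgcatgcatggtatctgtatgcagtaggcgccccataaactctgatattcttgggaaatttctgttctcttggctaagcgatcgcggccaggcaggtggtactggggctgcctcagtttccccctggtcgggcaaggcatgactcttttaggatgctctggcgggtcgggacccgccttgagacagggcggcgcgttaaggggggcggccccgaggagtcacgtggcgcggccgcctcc

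Most of the route from the receptor was lower after LPS. In +/fl cells 7 of the 9 members fell, Lyn, Blk, Syk, Btk, Blnk, Plcg2 and Malt1, and none rose, where 27.4% of all genes were called lower and 30.4% higher. In fl/fl cells all 9 fell, against 25.7% of all genes lower and 29.9% higher. Resting and LPS arrays did not overlap, with LPS lower, for 7 members in +/fl and 9 in fl/fl cells. Over all genes 32.2% and 28.7% were apart in that direction, and 33.5% in the other in each genotype. The median log2 difference of the members was −1.34 in +/fl cells and −1.65 in fl/fl cells, beside −0.03 and 0.06 over all genes. The members fell into 2 ranges: Lyn, Blk, Syk, Btk, Plcg2 and Malt1 fell 2.47-fold to 6.56-fold, while Blnk, Prkcb and Bcl10 moved by at most 1.37-fold. Levels are relative to the array's 75th percentile, which was 310 to 495 on the resting and 580 to 725 on the LPS arrays. Fewer cells of a type, less RNA per cell and a rise of other transcripts thus cannot be told apart in such bulk samples. The summed signal of the 10 B cell markers fell as well, from 567 to 709 at rest to 316 to 321 after LPS in +/fl cells. In fl/fl cells it fell from 518 to 588 to 245 to 297 (in units of the array's 75th percentile). Sums of other cell types were lower after LPS as well. In +/fl cells the 8 platelet markers went from 4.19 to 6.12 at rest to 0.92 to 1.54, the 14 T and NK cell markers from 22.5 to 53.9 to 7.17 to 9.54, the 8 dendritic markers from 5.64 to 7.18 to 1.95 to 2.22, and the 8 erythroid markers from 143 to 228 to 27.0 to 99.6. In fl/fl cells platelet markers went from at least 12.6 to at most 2.33, T and NK cell markers from 24.7 to 32.8 to 13.2 to 17.5, and dendritic markers from 4.34 to 6.42 to 3.03 to 3.31, while erythroid and myeloid sums overlapped between the states. Single markers went against their sums by limma. Flt3 and Zbtb46 of the dendritic list were called higher after LPS (1.10 and 2.17 in +/fl, 2.34 and 2.44 in fl/fl cells). Tfrc of the erythroid list was as well (1.65 and 1.54). Car2 was called higher in +/fl cells only (1.14), and Cd8a (1.28) and Cd72 (0.65) in fl/fl cells only. Other called markers of the B cell, T and NK cell, dendritic, erythroid and platelet lists were lower. The part of these sums in the members' values was not tested.

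**Figure D1:**
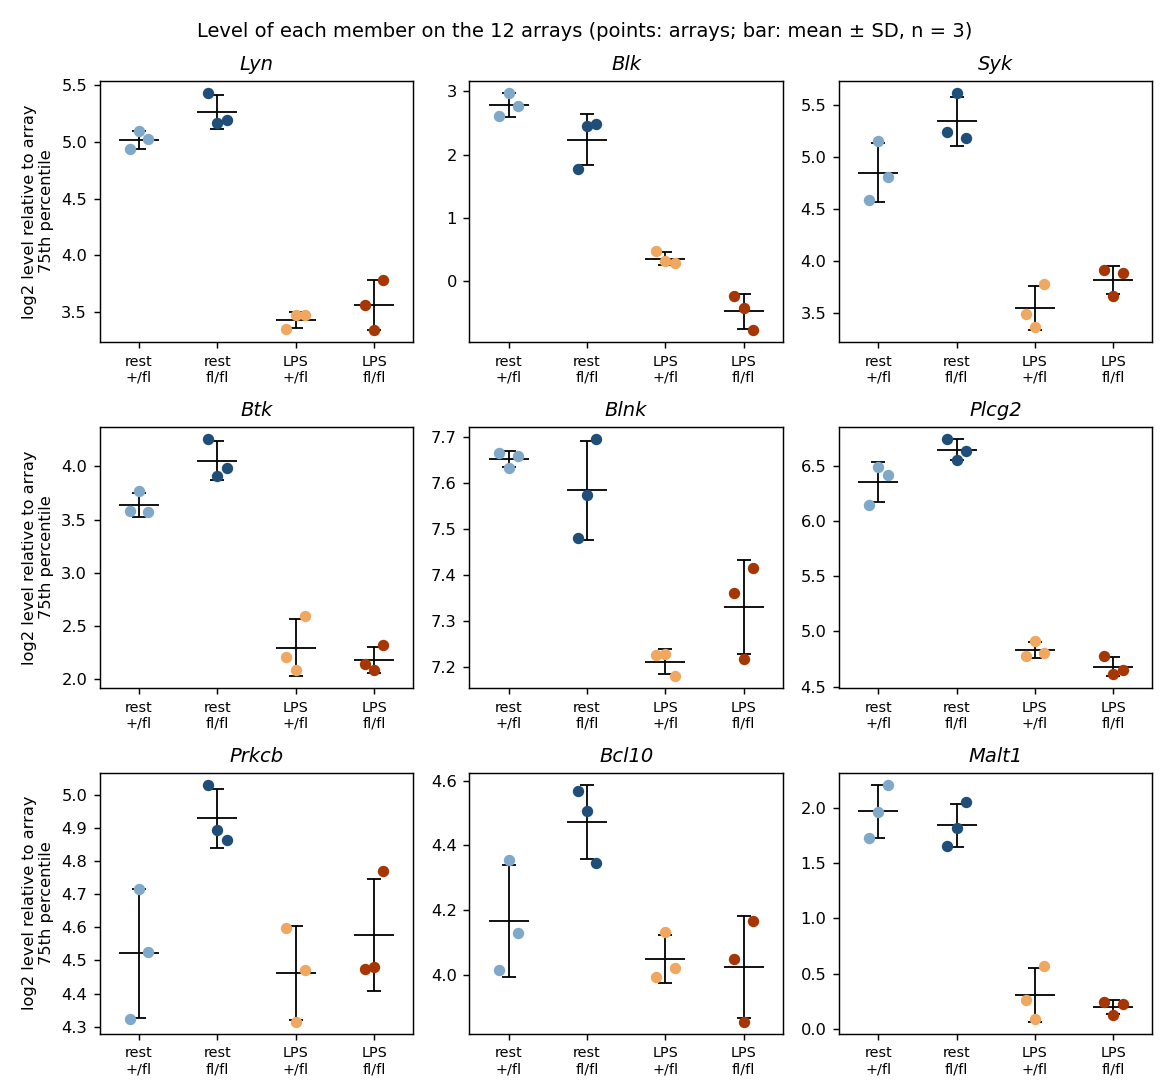
Log2 level of each member, relative to the array's 75th percentile, on the 12 arrays; points are arrays, and the bar is the group mean ± SD (n = 3). For Lyn, Blk, Syk, Btk, Plcg2 and Malt1 every LPS array lies below every resting array, while the groups lie close together for Prkcb and Bcl10. Over all genes, 32.2% in +/fl and 28.7% in fl/fl cells had LPS arrays below the resting arrays of the same genotype. The vertical scales differ between panels.

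Lyn, the Src family kinase that both starts receptor signalling and feeds the inhibitory receptors, read 4.93, 5.09 and 5.02 on the resting +/fl arrays and 5.43, 5.16 and 5.19 in resting fl/fl cells. After LPS it read 3.35, 3.48 and 3.48 in +/fl and 3.56, 3.34 and 3.79 in fl/fl cells. All 6 LPS arrays lay more than 1 log2 unit below all 6 resting arrays. Lyn fell 2.99-fold in +/fl cells (log2 −1.58, SE 0.13, adjusted p = 3.44e-06) and 3.24-fold in fl/fl cells (log2 −1.70, SE 0.13, adjusted p = 2.31e-06).

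Blk, a Src family kinase largely restricted to B cells, had the largest fall of the 9. It read 2.61, 2.98 and 2.78 on the resting +/fl arrays and 1.77, 2.46 and 2.48 in resting fl/fl cells. After LPS it read 0.48, 0.32 and 0.29 in +/fl and −0.23, −0.42 and −0.77 in fl/fl cells. The 4 groups did not overlap, in the order resting +/fl, resting fl/fl, LPS +/fl, LPS fl/fl. Blk fell 5.38-fold in +/fl cells (log2 −2.43, SE 0.21, adjusted p = 5.38e-06) and 6.56-fold in fl/fl cells (log2 −2.71, SE 0.21, adjusted p = 2.83e-06), and 5.20% and 2.46% of all genes had a lower log2 difference.

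Syk, the kinase that docks on the phosphorylated receptor chains, read 4.58, 5.15 and 4.81 on the resting +/fl arrays and 5.24, 5.62 and 5.18 in resting fl/fl cells. Its LPS arrays read 3.49, 3.37 and 3.78 in +/fl and 3.92, 3.67 and 3.88 in fl/fl cells. Resting and LPS arrays were apart in both genotypes. Syk fell 2.47-fold in +/fl cells (log2 −1.30, SE 0.18) and 2.88-fold in fl/fl cells (log2 −1.52, SE 0.18), with adjusted p-values of 0.00014 and 5.25e-05 from limma.

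Btk, the Tec family kinase that activates Plcg2, has 10 spots per array, of which 7 spot values over the 12 arrays were left out as flagged by the scanner software. Resting cells read 3.58, 3.77 and 3.57 (+/fl) and 4.26, 3.91 and 3.99 (fl/fl), and LPS cells 2.21, 2.08 and 2.59 (+/fl) and 2.14, 2.08 and 2.31 (fl/fl). The gap between resting and LPS arrays was wider than the spread within any group. The fall was 2.54-fold in +/fl cells (log2 −1.34, SE 0.15, adjusted p = 3.70e-05) and 3.68-fold in fl/fl cells (log2 −1.88, SE 0.15, adjusted p = 4.04e-06).

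Blnk, the adaptor on which Btk and Plcg2 meet, moved little. It read 7.66, 7.63 and 7.66 on the resting +/fl arrays and 7.48, 7.57 and 7.70 in resting fl/fl cells, and 7.22, 7.23 and 7.18 after LPS in +/fl and 7.36, 7.22 and 7.41 in fl/fl cells. Resting and LPS arrays did not overlap, but the steps were small. The fall was 1.36-fold in +/fl cells (log2 −0.44, SE 0.09, adjusted p = 0.0020) and 1.19-fold in fl/fl cells (log2 −0.25, SE 0.09, adjusted p = 0.038). The fl/fl call was kept in only 9 of 27 alternative settings, with values from −0.30 to 0.18, and in +/fl cells quantile normalization took the value to −0.19 (adjusted p = 0.156).

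Plcg2, the phospholipase that makes diacylglycerol and the calcium messenger, read 6.15, 6.49 and 6.42 on the resting +/fl arrays and 6.75, 6.56 and 6.63 in resting fl/fl cells. After LPS it read 4.78, 4.92 and 4.81 in +/fl and 4.78, 4.61 and 4.65 in fl/fl cells. Every LPS array lay more than 1 log2 unit below every resting array. It fell 2.87-fold in +/fl cells (log2 −1.52, SE 0.11, adjusted p = 1.93e-06) and 3.90-fold in fl/fl cells (log2 −1.96, SE 0.11), where its adjusted p of 4.53e-07 was the smallest of any member.

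Prkcb, the kinase that links diacylglycerol to the CBM complex, moved little. It read 4.32, 4.71 and 4.52 on the resting +/fl arrays and 5.03, 4.89 and 4.86 in resting fl/fl cells, and 4.60, 4.31 and 4.47 after LPS in +/fl and 4.48, 4.48 and 4.77 in fl/fl cells. The resting and LPS arrays overlapped in +/fl cells and did not in fl/fl cells. The log2 difference was −0.06 in +/fl cells (95% confidence interval −0.36 to 0.24, adjusted p = 0.730) and −0.35 in fl/fl cells (1.28-fold, SE 0.13, adjusted p = 0.0466). The fl/fl call was kept in 10 of 27 alternative settings, with values from −0.64 to 0.11. In +/fl cells Prkcb was called lower with quantile normalization (−0.46, adjusted p = 0.0218, limma) and with the deposited values (−0.44, adjusted p = 0.0258).

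Bcl10, the filament-forming adaptor of the CBM complex, read 4.02, 4.36 and 4.13 on the resting +/fl arrays and 4.57, 4.51 and 4.35 in resting fl/fl cells. After LPS it read 3.99, 4.13 and 4.02 in +/fl and 4.05, 3.86 and 4.17 in fl/fl cells. The +/fl groups overlapped and the fl/fl groups did not. Its log2 difference was −0.12 in +/fl cells (95% confidence interval −0.39 to 0.16, adjusted p = 0.442) and −0.45 in fl/fl cells (1.37-fold, SE 0.12, adjusted p = 0.0104). In +/fl cells Bcl10 was called lower with quantile normalization (−0.52, adjusted p = 0.0045, limma), the deposited values (−0.50, adjusted p = 0.0057) and the mean over its probes (−0.80, adjusted p = 0.00034).

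Malt1, the protease of the CBM complex, read 1.73, 1.96 and 2.21 on the resting +/fl arrays and 1.66, 1.82 and 2.05 in resting fl/fl cells. After LPS it read 0.26, 0.09 and 0.57 in +/fl and 0.24, 0.13 and 0.22 in fl/fl cells. The genotypes overlapped in each state and the states were apart. It fell 3.17-fold in +/fl cells (log2 −1.67, SE 0.16, adjusted p = 1.32e-05) and 3.13-fold in fl/fl cells (log2 −1.65, SE 0.16, adjusted p = 1.56e-05).

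**Figure D2:**
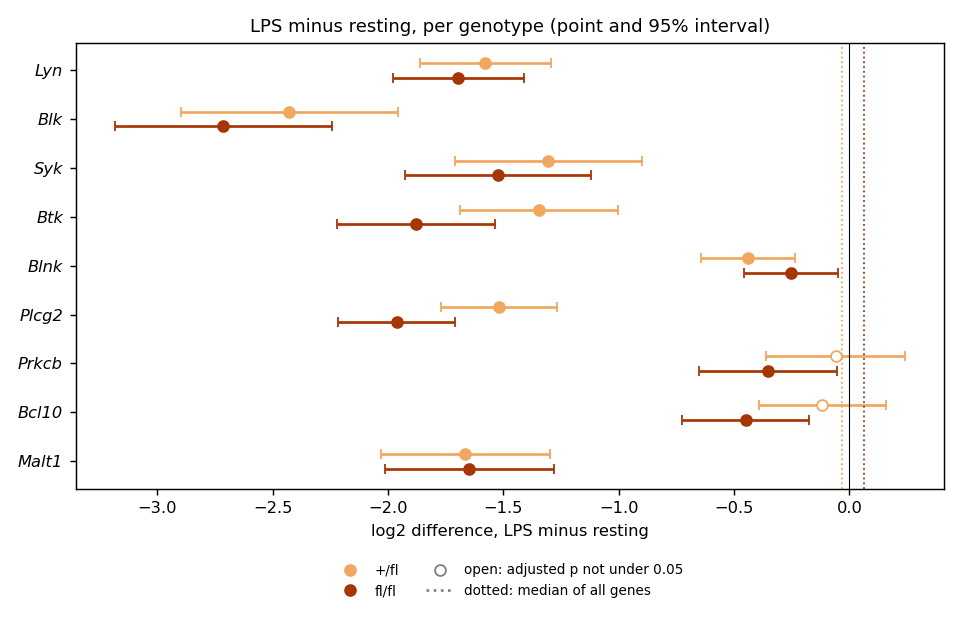
Log2 difference between LPS and resting cells for each member (horizontal axis), with its 95% confidence interval from limma, in +/fl (light) and fl/fl (dark) cells; filled points have an adjusted p under 0.05 and dotted lines are the medians of all genes. Lyn, Blk, Syk, Btk, Plcg2 and Malt1 lie between −2.71 and −1.30, and Blnk, Prkcb and Bcl10 between −0.45 and −0.06.

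Leaving out any 1 array kept the calls of Lyn, Blk, Syk, Btk, Plcg2 and Malt1 in both genotypes. Without resting +/fl 1 and 3, which had the highest summed myeloid markers, the same 7 members were called in +/fl cells. With the slide as a block and without LPS fl/fl 2, 6 remained called in fl/fl cells, and Blnk, Prkcb and Bcl10 did not. Within slides, the log2 difference of Blk was −2.68 to −2.13 in +/fl cells and −3.23 to −2.81 in fl/fl cells, and that of Plcg2 −1.63 to −1.37 and −1.94 to −1.90, each over 2 slides.

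In resting cells no member passed the test between genotypes, where 4.63% of all genes were higher and 4.18% lower in fl/fl cells. The smallest adjusted p was 0.0854, for Prkcb, and 6 members had an unadjusted p under 0.05 by limma, as did 27.7% of all genes. Lyn, Syk, Btk, Plcg2, Prkcb and Bcl10 had positive differences (0.25 to 0.50) and Blk, Blnk and Malt1 negative ones (−0.55 to −0.07). The arrays of the genotypes did not overlap for 6 members, higher in fl/fl cells for Lyn, Syk, Btk, Plcg2 and Prkcb and lower for Blk. Over all genes 18.7% were apart with fl/fl higher and 12.6% with fl/fl lower. The median difference of the members was 0.29, beside 0.05 over all genes.

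The log2 differences were 0.41 for Prkcb (95% confidence interval 0.11 to 0.71), 0.50 for Syk (0.09 to 0.90), 0.42 for Btk (0.07 to 0.76), 0.31 for Bcl10 (0.03 to 0.58) and 0.29 for Plcg2 (0.04 to 0.54). These 5 were above 0 under every alternative setting tried. None of these intervals reached 1 log2 unit. Lyn differed by 0.25 (−0.04 to 0.53), Blnk by −0.07 (−0.27 to 0.14) and Malt1 by −0.13 (−0.49 to 0.24). Within slides the Syk difference ran from 0.08 to 1.03, and that of Btk from 0.33 to 0.50.

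Blk differed by −0.55 (−1.02 to −0.08, adjusted p = 0.125), and the gap was smaller without 1 array. Resting fl/fl 1 read 1.77 while fl/fl 2 and 3 read 2.46 and 2.48, and without it the difference was −0.32 (adjusted p = 0.345). Within slides it ran from −1.21 to −0.15.

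Other measures moved with the resting genotypes. The summed signal of 8 platelet markers was at least 12.6 on each fl/fl array and 4.19 to 6.12 in +/fl cells, and 2 of the 8 were above background on all 12 arrays. Of the 8, only Itgb3 (1.55, adjusted p = 0.0125, limma) and Gp1bb (1.08, adjusted p = 0.0234) were called. Pf4 was not (1.05, adjusted p = 0.334). The sum of 8 plasma cell markers was 16.2 to 25.8 in fl/fl and 45.5 to 75.7 in +/fl cells, with 7 above background on every array. Of these only Mzb1 was called (−1.86, adjusted p = 0.0050, limma). Tnfrsf17 (−2.27), Jchain (−1.46), Derl3 (−0.99), Irf4 (−0.55), Prdm1 (−0.52) and Xbp1 (−0.02) had negative differences and Sdc1 (0.36) a positive one, none of them called. The sum of 15 myeloid markers was 101 to 163 in fl/fl and 126 to 327 in +/fl cells, with 11 above background on every array. In each of these lists every marker was above background on at least 1 array. Several members, Lyn, Syk, Btk and Plcg2 among them, are also known from platelets and myeloid cells, and the part of other cells in these differences was not tested.

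**Figure D3:**
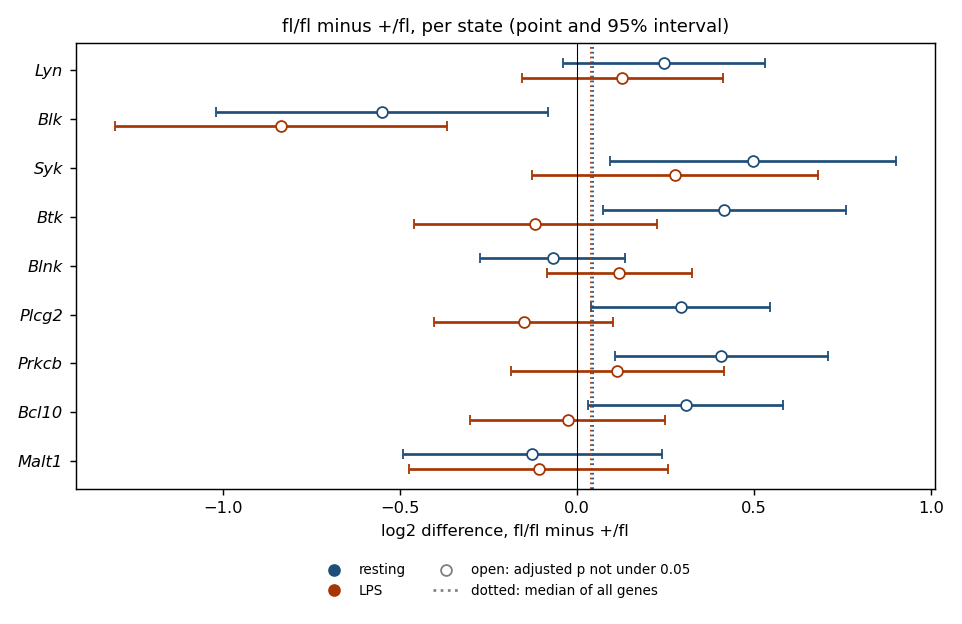
Log2 difference between fl/fl and +/fl cells for each member (horizontal axis), with its 95% confidence interval from limma, in resting (blue) and LPS (brown) cells; open points have an adjusted p not under 0.05 and dotted lines are the medians of all genes. All 18 points are open, the resting differences run from −0.55 to 0.50, and Blk is the lowest in both states.

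After LPS no member passed the test between genotypes either, where 0.887% of all genes were higher and 0.806% lower in fl/fl cells. Blk was the closest, 1.79-fold lower in fl/fl cells (log2 −0.84, 95% confidence interval −1.31 to −0.37, adjusted p = 0.0749), and the only member with an unadjusted p under 0.05 by limma, where 21.5% of all genes had one. It was also the only member whose LPS arrays did not overlap between genotypes; 18.1% of all genes were apart in that direction and 15.3% in the other. After LPS the B cell sum was apart too, 245 to 297 in fl/fl against 316 to 321 in +/fl cells, as was the plasma cell sum, 19.9 to 33.2 against 39.2 to 56.0. Of the plasma cell markers only Mzb1 was called (−1.52, adjusted p = 0.0251, limma). Of the B cell markers only Cd79a was called (−1.25, adjusted p = 0.0131, limma). Cd79b (−0.78) was not, and Ms4a1 (0.12), Cd22 (0.28) and Cd72 (0.28) had positive differences, not called. The T and NK cell sum (13.2 to 17.5 against 7.17 to 9.54) and the dendritic sum (3.03 to 3.31 against 1.95 to 2.22) were higher in fl/fl cells, and so was the platelet sum (1.73 to 2.33 against 0.92 to 1.54). Of the dendritic markers only Siglech was called (1.64, adjusted p = 0.0469, limma), and no T and NK cell or platelet marker was. The part of these sums in the Blk difference was not tested. The Blk difference stayed between −1.07 and −0.64 over 27 alternative settings and passed the threshold in 3. Without resting fl/fl 1, which enters the shared estimate of spread, its adjusted p was 0.0455. LPS +/fl 2 and 3 lay on slide 1, LPS fl/fl 1 and 2 on slide 3, and LPS +/fl 1 and LPS fl/fl 3 on slide 2. Genotype and slide thus largely cannot be told apart after LPS. With the slide as a fixed block the calls over all genes in this comparison went from 290 to 5. The single slide with both LPS genotypes gave −1.25 for Blk. The other 8 members lay between −0.15 and 0.28, and their sign changed with the setting for Btk, Plcg2, Bcl10 and Malt1.

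The LPS response of fl/fl cells did not differ from that of +/fl cells for any member by the interaction test, where 0.105% of all genes had a higher and 0.07% a lower response in fl/fl cells. Btk and Plcg2 had an unadjusted p under 0.05 by limma, as did 20.3% of all genes. Their interaction values were −0.53 for Btk (95% confidence interval −1.02 to −0.05, adjusted p = 0.215) and −0.44 for Plcg2 (−0.80 to −0.09, adjusted p = 0.174), so a stronger fall in fl/fl cells was not shown. For Prkcb (−0.29, adjusted p = 0.400) and Bcl10 (−0.33, adjusted p = 0.305), called lower in fl/fl but not in +/fl cells, the difference between genotypes did not pass either.

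The further probes gave another picture for 3 of the 4 genes that have them. The difference between the probes of a gene says nothing as a level, but a shift of it between samples shows that the probes did not move alike. For Bcl10 it was 1.83 ± 0.11 (SD, n = 3) in resting +/fl, 1.49 ± 0.14 in resting fl/fl, 3.19 ± 0.14 in LPS +/fl and 2.89 ± 0.01 in LPS fl/fl cells. No LPS array overlapped a resting array. The upstream probe of Bcl10, named for another transcript (AK080820), fell by 1.48 in +/fl cells (SE 0.14, adjusted p = 1.01e-05 over all probes, limma) and by 1.85 in fl/fl cells (SE 0.14, adjusted p = 2.44e-06), where the bright probe differed by −0.12 and −0.45. In resting cells the upstream probe was higher in fl/fl cells by 0.65 (SE 0.14, adjusted p = 0.0266 over all probes). Which probe stands for the Bcl10 protein-coding message cannot be settled from these files.

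For Lyn and Prkcb the probes parted in resting fl/fl cells. The bright-minus-upstream difference of Lyn was 2.56, 1.55 and 2.02 on resting fl/fl 1, 2 and 3 and 1.58, 1.51 and 1.17 on the resting +/fl arrays. That of Prkcb was 3.57, 2.16 and 2.76 in resting fl/fl against 2.40, 2.10 and 1.95 in resting +/fl cells. Resting fl/fl 1 was the highest of the 12 arrays for both. The upstream probes gave resting genotype differences of −0.38 for Lyn (SE 0.19, adjusted p = 0.226 over all probes, limma) and −0.27 for Prkcb (SE 0.29, adjusted p = 0.580), opposite in sign to 0.25 and 0.41 at the bright probes. The mean over both Lyn probes was −0.07.

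The same array stood apart over the whole platform. Among 3089 transcripts with 2 probes, the median difference of the 3′ probe over the 5′ probe, each transcript set against its own mean over the arrays, was 0.31 on resting fl/fl 1 and 0.17 on resting fl/fl 3, against −0.19 to 0.04 on the other 10. Its part in the resting values of Lyn, Prkcb and Blk was not tested. Malt1's upstream probe, named for AK045200, fell by 1.15 in +/fl cells (SE 0.26, adjusted p = 0.0032 over all probes, limma) and by 0.98 in fl/fl cells (SE 0.26, adjusted p = 0.0083), the same direction as its bright probe. The upstream probe of Lyn fell as well, by 1.97 and 1.26 (SE 0.19), while that of Prkcb differed by −0.36 and 0.17 (SE 0.29).

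**Figure D4:**
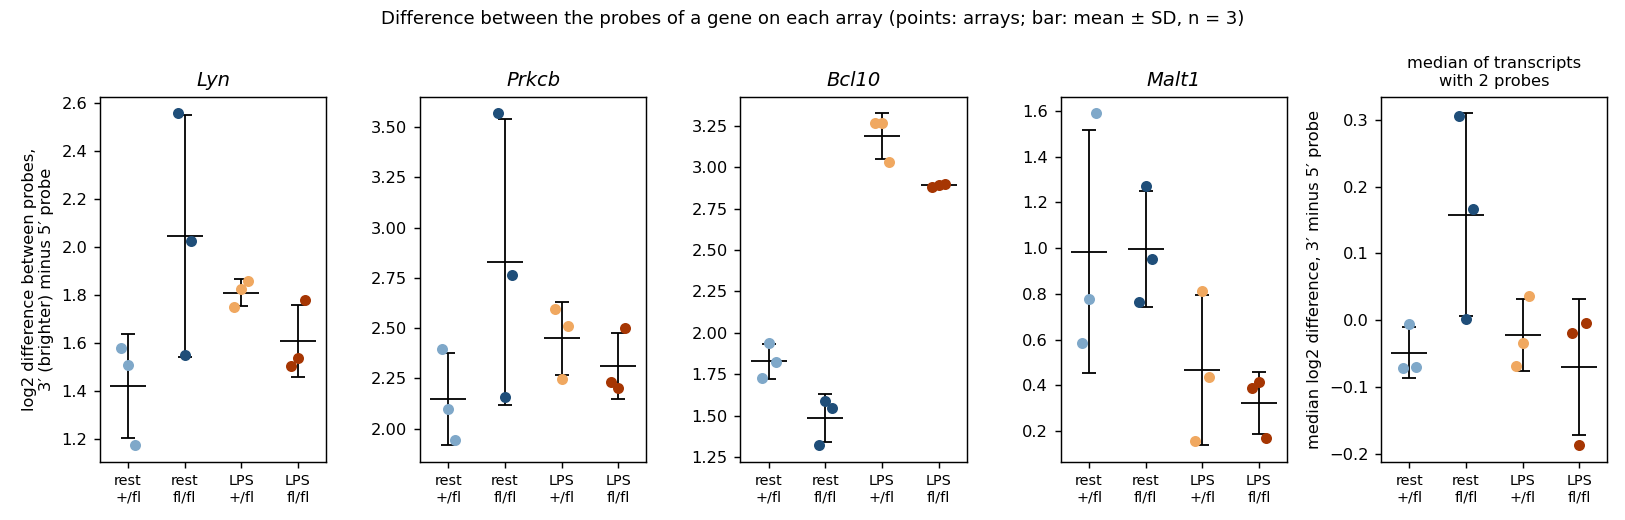
Log2 signal of the bright 3′ probe minus that of the upstream 5′ probe for Lyn, Prkcb, Bcl10 and Malt1, and the median over 3089 transcripts with 2 probes (right panel); points are arrays, and the bar is the mean ± SD (n = 3). For Lyn and Prkcb resting fl/fl 1 is the highest point, for Bcl10 both LPS groups lie above both resting groups, and vertical scales differ between panels.

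The rest of the pathway was read from 7 lists of 108 further genes, of which 104 passed the filter. After LPS 60 of these fell and 15 rose in +/fl cells, and 59 fell and 13 rose in fl/fl cells, with medians of −0.66 and −0.74. Over all genes 27.4% fell and 30.4% rose in +/fl cells, and 25.7% fell and 29.9% rose in fl/fl cells. The medians of all genes were −0.03 and 0.06. The counts of each list below stand beside these same shares. Of 12 other Src, Syk and Tec family kinases, 8 fell and none rose in +/fl cells, and 7 fell and 2 rose in fl/fl cells. Fgr, a Src family kinase, fell 16.3-fold and 24.3-fold in +/fl and fl/fl cells, and Lck, its T cell relative, 3.74-fold and 3.38-fold. Of 13 further protein kinase C and phospholipase C isoforms, 9 fell and 1 rose in +/fl cells and 8 fell and 1 rose in fl/fl cells; Plcb2 fell 3.11-fold and 3.29-fold, while the atypical kinase Prkci rose 3.23-fold and 2.60-fold.

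Among 15 receptor chains, co-receptors and adaptors, 10 fell and 1 rose in +/fl cells, and 8 fell and 1 rose in fl/fl cells. Cd79a, a signalling chain of the receptor, fell 7.62-fold in +/fl and 10.8-fold in fl/fl cells, and Lat2, an adaptor, 3.47-fold and 5.15-fold. The brakes fell with the kinases: of 20 phosphatases, ligases and inhibitory adaptors, 14 fell and 1 rose in each genotype. Inpp5d, the lipid phosphatase SHIP1, fell 5.45-fold and 6.06-fold, and Dok3, an inhibitory adaptor, 37.7-fold and 29.9-fold. Of 19 genes of the calcium, NFAT and Ras branches, 12 fell and 2 rose in +/fl cells and 13 fell and 1 rose in fl/fl cells. Rasgrp2, an activator of small GTPases, fell 18.3-fold and 24.0-fold, and the calcium channel Itpr3 7.27-fold and 6.73-fold.

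Downstream of the CBM complex the lists held both falls and rises, as did all genes. Of 18 CARD proteins, ligases and IkB kinases, 5 fell and 6 rose in +/fl cells, and 7 fell and 4 rose in fl/fl cells. The +/fl counts were near the shares over all genes. Medians of this list were −0.09 in +/fl and −0.16 in fl/fl cells, beside −0.03 and 0.06 over all genes. Cflar, an inhibitor of Casp8, rose 2.80-fold in +/fl and 2.47-fold in fl/fl cells, and Ube2n, a ubiquitin-conjugating enzyme, 2.56-fold and 2.65-fold. Of 8 genes listed as Malt1 protease substrates, not all of them shown to be cut by Malt1 in normal B cells, 2 fell and 4 rose in +/fl cells. In fl/fl cells 2 fell and 3 rose. Tnfaip3, the deubiquitinase A20, rose 4.87-fold and 3.56-fold, Zc3h12a, the RNase Regnase-1, rose 3.60-fold and 3.07-fold, and Map3k14, the kinase NIK, fell 2.62-fold and 2.90-fold.

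**Figure D5:**
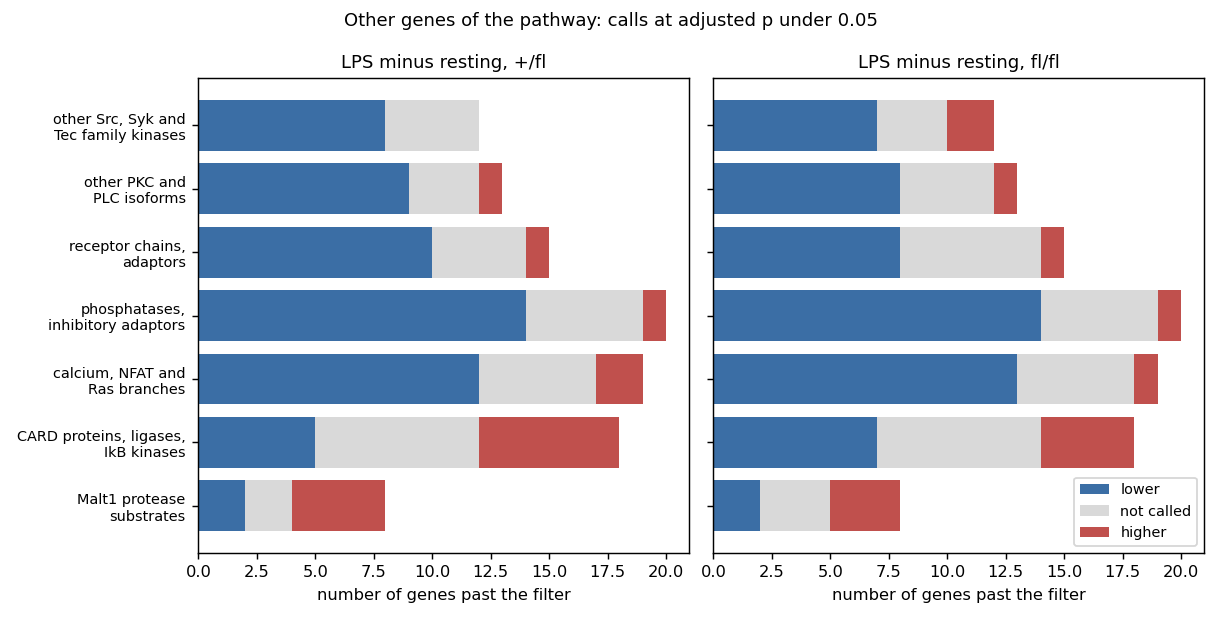
Number of genes in each of 7 pathway lists that were called lower (blue), higher (red) or not called (grey) between LPS and resting cells, in +/fl (left) and fl/fl (right) cells, by limma at an adjusted p under 0.05. Blue is the longest part of the bar in the first 5 lists in both genotypes, and the CARD and Malt1 substrate lists hold more red.

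Between the resting genotypes 16 of the 104 pathway genes were called, 10 higher and 6 lower in fl/fl cells. Over all genes 4.63% were higher and 4.18% lower in fl/fl cells. Cd79a was 1.68-fold and Lat2 1.47-fold lower, and the inhibitory adaptor Lax1 1.76-fold lower. Higher were the calcium sensors Stim1 (1.45-fold) and Stim2 (1.42-fold), the diacylglycerol kinase Dgka (1.79-fold), the protein kinase Prkd2 (1.69-fold), the Btk-binding inhibitor Sh3bp5 (1.43-fold), and the ligases Birc3 (1.61-fold), Traf2 (1.31-fold) and Traf6 (1.34-fold). Fgr was 2.85-fold higher, beside a myeloid sum of 101 to 163 against 126 to 327. This count rested on single arrays: without resting fl/fl 1, 2 or 3 it was 4, 9 or 10, without resting +/fl 1 or 3 it was 5 or 6, without LPS fl/fl 1 it was 8, and without LPS +/fl 1 or 3 it was 9 each. Without resting +/fl 1 and 3 together it was 1. After LPS 3 were called, where 0.887% of all genes were higher and 0.806% lower in fl/fl cells. These were Cd79a (2.38-fold) and Lat2 (2.17-fold), lower in fl/fl cells, and the inhibitory adaptor Sla2 (1.91-fold), higher. Without LPS +/fl 3 the count was 1, and the calls over all genes went from 290 to 16. On the LPS arrays genotype and slide largely cannot be told apart. None of the 104 passed the interaction test.

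The genes whose centred values over the 12 arrays came closest to each member's were found among all genes past the filter, by the root mean square (RMS) difference. For Lyn these were Ppp1r18 (RMS difference 0.07 log2 units) and Brwd1 (0.11), for Btk Dipk1a (0.11), and for Plcg2 Atg16l2 (0.12) and Mgrn1 (0.12). For Syk they were Map3k14 (0.13) and Ddb2 (0.14), and for Malt1 Iqce (0.11) and Ero1b (0.15). For the members that moved little they were Cenpo (0.08) and Tlr9 (0.09) for Blnk, Ric8b (0.09) and Zbtb14 (0.10) for Prkcb, and Gna13 (0.07) and G3bp2 (0.07) for Bcl10. Blk had no gene as close, with Tmem154 at 0.27 and Ifi30 at 0.29. Among the members themselves the closest pair was Prkcb and Bcl10 (0.13), followed by Lyn and Plcg2 (0.15) and Lyn and Btk (0.16).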

How the data were processed

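The data are 12 Agilent 1-colour mouse arrays, 3 in each of 4 groups. The deposited scanner files give intensity, the background-subtracted Cy3 signal per spot, with probe positions on mm7, per the file headers. The headers name Feature Extraction 9.5.3.1 and the submitters' processing notes 9.1. The deposited value table is intensity on a linear scale, and each of its columns holds the same 41250 values in another order, as quantile normalization gives. Its method was not stated, and it served as an alternative only.

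Flagged and control spots were left out (87 probes lost of 41174), spots of a probe averaged, and the 75th percentile of each array subtracted on the log2 scale. The filter asked for signal well above background on 3 or more of the 12 arrays (25675 probes, 17132 genes), with the brightest probe for each gene. Group means over 12 arrays were fitted with limma 3.58.1 in R 4.3.3 (prior degrees of freedom 1.79), tested on simulated data, and adjusted by Benjamini-Hochberg over all genes, or over all probes for further probes. With 3 arrays a group, their number limits the precision. Of the probes, 22951 were named through an accession, 6659 through a symbol and 3109 through a synonym of a RefSeq mouse table; the file's own name was used for the other 8455.

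Members, lists, tests and the rule for named genes were chosen with earlier results of these data known. Named were the 9 members, up to 3 genes with the smallest p from each list and comparison among those past the threshold, and the 2 genes nearest to each member; some genes that this rule names are not reported here. Motifs and promoters come from RefSeq tables. Alternatives, given in the closing section, were normexp background correction (offset 50), quantile normalization, other filters, the deposited values, the mean over probes, slide or replicate blocks, only the arrays compared, another prior variance, and leaving arrays out. A repaired normexp and 2 fits without doubted arrays were added after seeing the data.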

Additional observations from a re-analysis of the deposited data

How the results depend on the processing

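The LPS falls of Lyn, Blk, Syk, Btk, Plcg2 and Malt1 kept their direction in all 27 alternatives, at −2.62 to −1.15 in +/fl and −2.95 to −1.07 in fl/fl cells, and were called in all but normexp, where only Blk (both genotypes) and Malt1 (fl/fl) passed. The +/fl count of 7 was 8 with quantile normalization and the mean over probes and 9 with the deposited values. Normexp called 1 member in +/fl and 2 in fl/fl cells; it failed on 3 arrays, where 7, 20 and 16 spots had a high local background, and the repaired version called 7 in fl/fl cells. The fl/fl count of 9 ran from 7 to 9 when 1 array was left out, losing Blnk or Prkcb. Between resting genotypes 1 member was called with the mean over probes (Bcl10, adjusted p = 0.0480) and 1 with another prior variance (Prkcb, 0.0449). Between LPS genotypes 1 member, Blk, was called with the all-array filter and with that prior, and 0 to 1 when 1 array was left out. No interaction was called in any alternative.

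With a replicate block 0, 0, 7, 7 and 0 members were called in the order above (resting, LPS, +/fl, fl/fl, interaction), and pathway calls in resting cells fell from 16 to 6. Calls over all genes in resting cells fell from 1510 to 725 with that block. Same-numbered arrays showed little common deviation from their group means (r −0.14 to 0.13, over 0.1 in 2 of 18 pairs). Deviations from means of 3 arrays also carry technical variation, so these values cannot settle whether the numbers pair the samples. Resting +/fl 3 and LPS +/fl 1, whose sample names share a number, had r = 0.133, the highest of any pair from different groups.

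Signs turned for small differences, and the cause was not tested. Under normexp the LPS genotype difference became 0.28 for Btk, 0.29 for Plcg2 and 0.44 for Bcl10, the fl/fl LPS difference 0.18 for Blnk and 0.11 for Prkcb, and the interaction 0.30 for Lyn, 0.25 for Syk, 0.20 for Prkcb, 0.10 for Bcl10 and −0.015 for Malt1. Quantile normalization gave 0.050 for Blnk in resting cells and 0.0063 for Plcg2 and 0.12 for Bcl10 in LPS cells; the deposited values gave 0.019 for Blnk, 0.0018 for Btk, 0.015 for Plcg2, 0.11 for Bcl10 and an interaction of 0.025 for Lyn. The mean over probes gave −0.066 for Lyn in resting cells, 0.12 for Bcl10 in LPS cells, and interactions of 0.30 for Lyn and 0.12 for Prkcb. The slide as a fixed block gave 0.058 for Btk and 0.14 for Bcl10 in LPS cells and interactions of 0.036 for Lyn and −0.13 for Malt1, and without LPS fl/fl 2 as well 0.088, 0.19, 0.11 and −0.067. Without the 2 arrays that share a number the Malt1 interaction was −0.13, and without resting +/fl 1 and 3 the Syk interaction was 0.083. Leaving out 1 array, the LPS genotype difference ran from −0.097 to 0.059 for Bcl10, −0.22 to 0.034 for Btk and −0.22 to 0.022 for Malt1, the +/fl LPS difference of Prkcb from −0.16 to 0.037, and the Malt1 interaction from −0.10 to 0.15.

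The median of all genes moved by over 0.1 under normexp (to −0.44 for LPS in fl/fl cells), the repaired normexp (−0.23 in both LPS responses), no filter, quantile normalization and the deposited values (−0.12 and −0.11 for LPS in fl/fl cells), and without LPS fl/fl 2 (−0.04 there). All member probes were well above background on all 12 arrays.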
